A study of Mus musculus with 9 samples.

Results

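The fibroblast growth factor (FGF) genes described here were 6 ligands, *Fgf4*, *Fgf8*, *Fgf9*, *Fgf17*, *Fgf10* and *Fgf18*, and 3 receptors, *Fgfr1*, *Fgfr2* and *Fgfr3*. They were chosen by name, and all 9 were found among the 32285 genes counted. Cells were dissociated from pairs of mouse forelimb buds at E10.75 (37 to 39 somites) and sequenced with droplet libraries that tag the 3′ ends of transcripts. Each library came from the limb bud pair of a separate embryo in the Swiss Albino background, with 3 libraries per genotype. Wild-type (Wt) embryos carried no deletion. The E1C8Δ/Δ (EC1CRM8Δ/Δ) and E1C5Δ/Δ (EC1CRM5Δ/Δ) embryos were homozygous for alleles that delete the EC1 enhancer region of *Grem1* and, on the same chromosome, CRM8 or CRM5, and both genotypes form tetradactyl limbs. *Grem1* encodes an antagonist of bone morphogenetic proteins. The E1C8 allele was made by genome editing of zygotes that already lacked EC1. The deletions were present in every cell of these embryos and were not limited to the limb bud.

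In the limb bud, FGF ligands pass between ectoderm and mesenchyme. The apical ectodermal ridge, a strip of ectoderm at the distal rim, secretes FGF8, FGF4, FGF9 and FGF17 towards the mesenchyme, which carries the mesenchymal isoforms of the receptors, while the mesenchyme secretes FGF10 towards an isoform of FGFR2 in the ectoderm. Ridge FGFs keep distal mesenchyme alive and growing, and GREM1 in the mesenchyme helps to keep the ridge FGFs on. FGF9, FGF18 and FGFR3 are also known from developing cartilage and muscle.

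Cells were assigned to classes by marker lists that held no FGF gene. Of 44654 cells kept, 81 were ridge, 539 other ectoderm, 36859 mesenchyme, 2368 muscle, 634 endothelium and 2181 blood, and 1772 were left without a class. Libraries held between 592 and 8699 cells with medians of 16830 to 47699 unique molecular identifiers (UMIs) per cell. The number of ridge cells per library ran from 2 to 24, and 4 libraries held the 10 that a ridge test required, namely Wt replicates 1 and 2 and E1C8Δ/Δ replicates 2 and 3. Levels are given as CPM, the UMIs of a gene per 1000000 UMIs of all genes in the summed cells. *Grem1* in mesenchyme was at 28.9 to 44.2 CPM in the Wt libraries, 10.9 to 13.9 in E1C8Δ/Δ and 15.9 to 23.96 in E1C5Δ/Δ, so that every mutant library lay below every Wt library, in the direction the deletions would give. Chromosome X and Y transcripts marked all 3 Wt libraries as male and 4 of the 6 mutant libraries as female, the males being E1C8Δ/Δ replicate 3 and E1C5Δ/Δ replicate 2. Sex and genotype were therefore partly confounded.

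The promoters of the 2 ligand genes that were lower in the mesenchyme of both mutants are shown as the 250 bases before the start of transcription, in RefSeq sequence of GRCm38.p6, 5′ to 3′ on the strand of the gene. The window of *Fgf9* lay at chr14:58072436-58072685 on the + strand, within an intron of the longest GENCODE transcript and next to the start of a shorter one. The window of *Fgf18* lay at chr11:33147401-33147650 on the - strand, directly before the first exon. Matches to 4 motifs on either strand are in capitals. They were a binding box of SP factors, searched as GGGCGG, and the box bound by the general transcription machinery, searched as TATAAA. The core that homeodomain proteins bind was searched as TAATTA, and the site of GLI proteins as GACCACCCA.
Fgf9: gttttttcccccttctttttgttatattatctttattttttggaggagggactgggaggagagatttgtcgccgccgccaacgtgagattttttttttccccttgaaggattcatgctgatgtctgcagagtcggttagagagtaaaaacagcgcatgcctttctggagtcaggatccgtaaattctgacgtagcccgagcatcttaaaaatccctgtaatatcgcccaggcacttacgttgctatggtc
Fgf18: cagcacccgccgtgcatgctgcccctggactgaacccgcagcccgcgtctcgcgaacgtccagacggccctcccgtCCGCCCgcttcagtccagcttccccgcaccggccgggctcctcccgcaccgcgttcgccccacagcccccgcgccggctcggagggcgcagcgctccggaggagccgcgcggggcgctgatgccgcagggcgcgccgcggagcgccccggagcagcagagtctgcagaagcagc
The *Fgf18* window held 1 match to GGGCGG, on the other strand, and 77.2% G and C, whereas the *Fgf9* window held 0 of the 4 motifs and 44.8% G and C. Of 32851 promoter windows in the table, 32.7% held GGGCGG, 12.4% TATAAA, 4.84% TAATTA and 0.225% GACCACCCA.

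Members differed in level between classes (plot of levels by class). Ectoderm, with ridge and other ectoderm summed, stood above mesenchyme in *Fgf8*, *Fgf17*, *Fgf9*, *Fgfr2* and *Fgfr3*. Mesenchyme stood above ectoderm in *Fgf10*, *Fgf18* and *Fgfr1*. All 8 members that had enough UMIs for a test passed it in this comparison of 6 libraries, beside 54.0% of all genes tested. The largest difference was that of *Fgf8*, 8.19 on the log2 scale (SE 0.29, adjusted p = 2.1e-14 by edgeR's quasi-likelihood test with the library as a block). *Fgf4* had too few UMIs outside the ridge for this test.

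**Figure D1:**
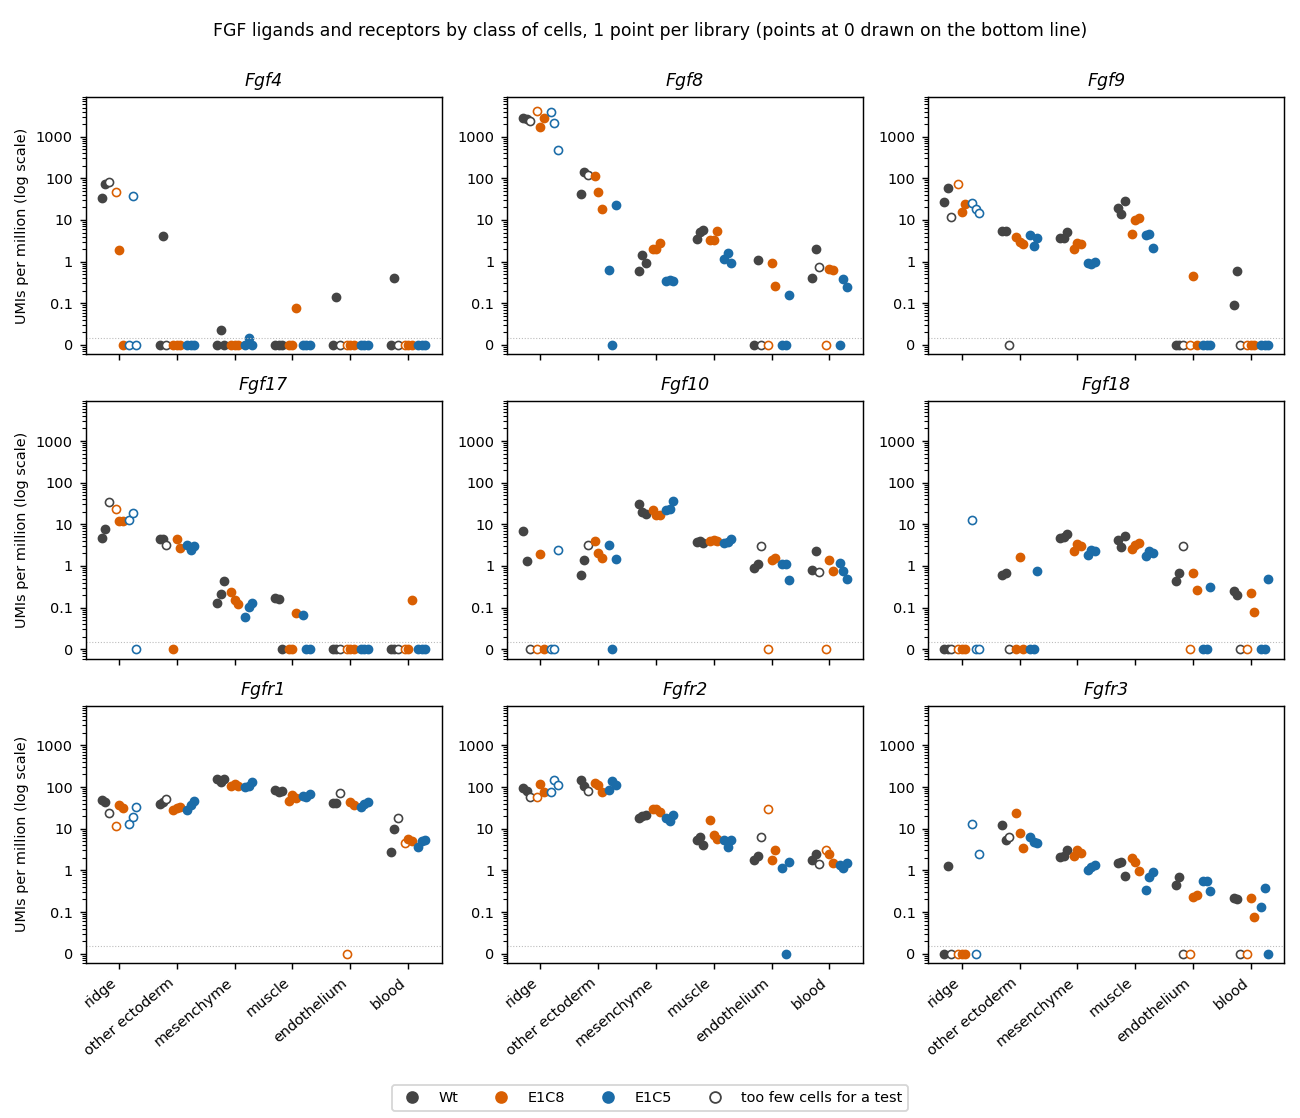
CPM of each member in 6 classes of cells on a log axis, 1 point per library, coloured by genotype. *Fgf8* reached 2732 in the ridge of a Wt library and stayed under 6 in every mesenchyme, muscle, endothelium and blood sum, while *Fgf10* was highest in mesenchyme and *Fgfr2* in both ectodermal classes.

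Blood cells served as a measure of free RNA, since they are not known as a source of these ligands. *Fgf8* UMIs were found in 1.60% of blood cells, *Fgf10* UMIs in 3.21%, *Fgf9* UMIs in 0.229% and *Fgf4* UMIs in 0.0459%, at a median of 32698 UMIs per cell. *Fgf8* in mesenchyme was found in 2.95% of cells at a median of 27538 UMIs and in muscle in 10.68% at a median of 34583 UMIs. Thinned to 10000 UMIs per cell, these shares were 0.688% in blood, 1.19% in mesenchyme and 2.82% in muscle, so that mesenchyme came near free RNA and muscle lay above it. *Fgfr1* and *Fgfr2* reached 13.4% and 5.78% of blood cells, against 88.3% and 35.6% of mesenchymal cells.

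The ridge ligands were highest in cells with most or all of the ridge markers (plot by ridge markers). *Fgf8*, the ligand that marks the whole ridge (chr19:45736798-45742915 in mm10), was at 9.67 CPM in ectodermal cells with 0 of the 8 ridge markers, at 20.3 with 1, 0.731 with 2 and 77.1 with 3, and at 3425 in cells with all 8. Its level was thus uneven up to 2 markers and higher at each step from 3 on. *Fgf4*, which in the mouse limb is transcribed in the posterior and distal ridge (chr7:144847367-144865243), was at 0 in cells with 0, 1 or 2 markers and at 63.0 in cells with 8. *Fgf9* (chr14:58070547-58112720) went from 2.15 to 49.6. *Fgf17* (chr14:70636203-70642268), whose known ridge domain is also posterior and distal, went from 3.22 to 12.1, with 0.365 at 2 markers as its lowest value. The ridge gate required 5 markers and 400 CPM of their sum. These limits were set after member levels along this series had been seen, and the ridge is therefore compared with other ectoderm without a test for the members.

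**Figure D2:**
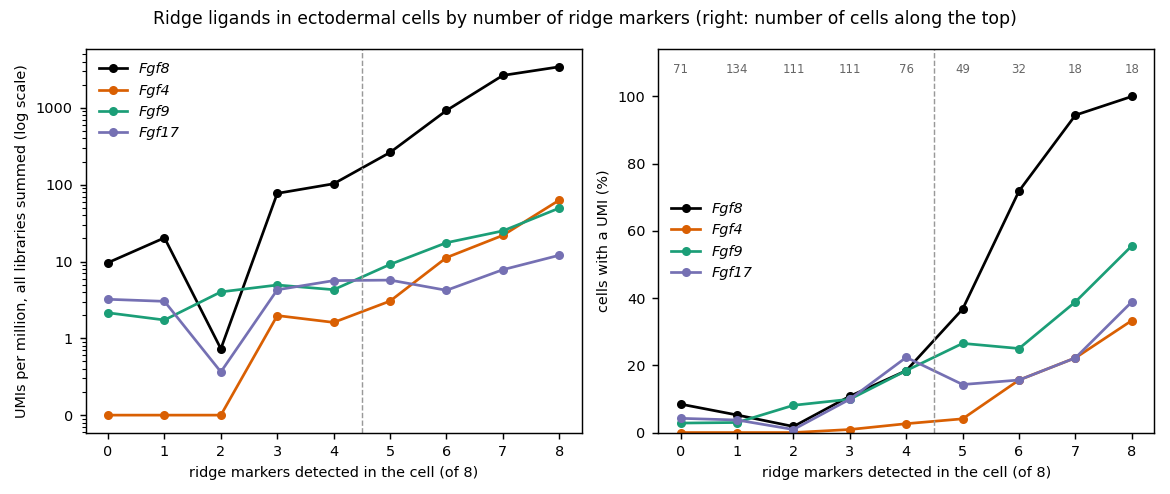
Left, CPM of 4 ridge ligands (log axis, 0 drawn at the foot) and right, the percentage of cells with a UMI, in ectodermal cells of all libraries by the number of ridge markers detected. The dashed line marks the gate of 5 markers, at which *Fgf8* was at 263 CPM, against 103 at 4 markers.

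In the ridge gate, *Fgf8* UMIs were found in 69 of 81 cells (85.2%, exact binomial 95% interval 75.6 to 92.1), at a median of 48 UMIs per cell and a highest count of 391. The 12 cells without *Fgf8* were deeper, at a median of 47514.5 UMIs of all genes against 17458 in the 69. Of ectodermal cells with 5 ridge markers, at a median of 41312 UMIs, 36.7% had *Fgf8* UMIs. The 81 cells held 61.3% of all *Fgf8* UMIs and 66.4% of all *Fgf4* UMIs, with 0.184% of the UMIs of all genes. They held 2.07% of *Fgf9* and 8.68% of *Fgf17* UMIs. Mesenchyme held 67.7% of *Fgf9* and 63.5% of *Fgf17* UMIs, below its 81.1% of the UMIs of all genes. *Fgf4* UMIs were found in 17 ridge cells (20.99%, interval 12.7 to 31.5), *Fgf9* UMIs in 34 (42.0%, 31.1 to 53.5) and *Fgf17* UMIs in 18 (22.2%, 13.7 to 32.8). Thinning left 71 ridge cells, in which the shares were 80.3% for *Fgf8*, 19.7% for *Fgf4*, 28.2% for *Fgf9* and 11.3% for *Fgf17*. The thinned blood shares of *Fgf4* and *Fgf17* were 0, and that of *Fgf9* was 0.0918%. All intervals cover counting error only.

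The ligands overlapped within ridge cells. All 17 ridge cells with *Fgf4* UMIs also had *Fgf8* UMIs, against 52 of the 64 ridge cells without *Fgf4*. *Fgf9* was found in 12 of the 17 and in 22 of the 64. *Fgf17* was found in 7 of the 17 and in 11 of the 64. The median depth of the cells with *Fgf4*, 19174 UMIs, was below that of the cells without, 22157.5. The 17 cells came from 6 libraries, and 14 of them were Wt.

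Per library, *Fgf8* in the ridge was at 2732, 2610 and 2436 CPM in Wt replicates 1 to 3, at 4062, 1678 and 2742 in E1C8Δ/Δ and at 3847, 2100 and 470.3 in E1C5Δ/Δ. The genotypes overlapped. In the 4 libraries with at least 10 ridge cells, E1C8Δ/Δ differed from Wt by -0.32 on the log2 scale (95% interval -0.76 to 0.12, adjusted p = 0.81 by edgeR). The lowest library, E1C5Δ/Δ replicate 3, held 6 ridge cells.

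**Figure D3:**
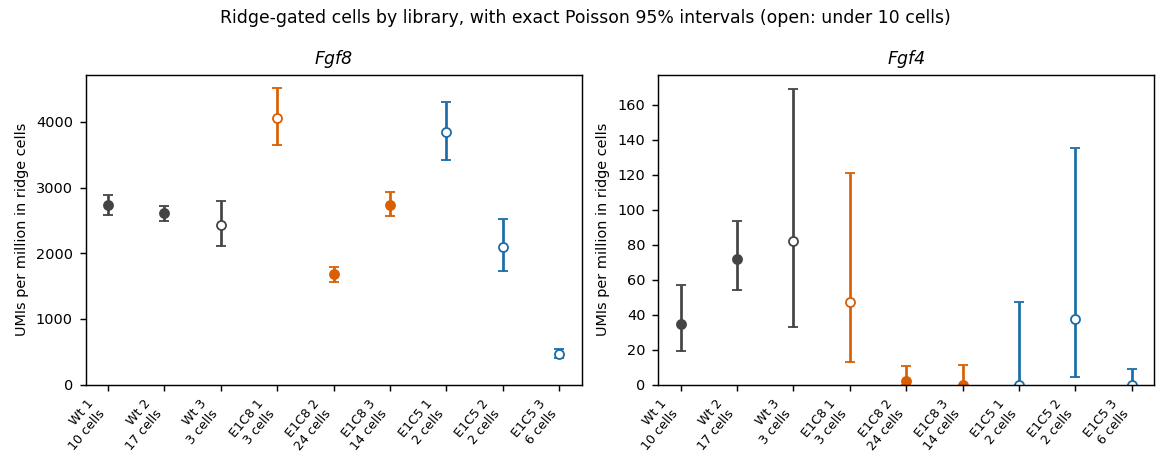
CPM of *Fgf8* and *Fgf4* in ridge cells of each library with exact Poisson 95% intervals (open points: under 10 cells). In libraries with at least 10 ridge cells, *Fgf4* was at 34.4 and 72.0 in Wt and at 1.95 and 0 in E1C8Δ/Δ. With fewer ridge cells, E1C8Δ/Δ replicate 1 and E1C5Δ/Δ replicate 2 lay within the Wt range. *Fgf8* overlapped between genotypes.

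*Fgf4* in the ridge was at 34.4, 72.0 and 82.0 CPM in Wt replicates 1 to 3 (15, 56 and 7 UMIs). It was at 47.4, 1.95 and 0 in E1C8Δ/Δ (4, 1 and 0 UMIs) and at 0, 37.5 and 0 in E1C5Δ/Δ (0, 2 and 0 UMIs). The count of 0 in E1C8Δ/Δ replicate 3 allows up to 11.4 CPM by the exact Poisson interval, and that in E1C5Δ/Δ replicate 3 up to 8.94. The count of 0 in E1C5Δ/Δ replicate 1, from 2 ridge cells, allows up to 47.3, which reaches the Wt range. The libraries of both mutants with values in that range, E1C8Δ/Δ replicate 1 and E1C5Δ/Δ replicate 2, held 3 and 2 ridge cells, and Wt replicate 3 held 3. In the libraries with at least 10 ridge cells, *Fgf4* passed the filter on low counts through Wt alone, the group in which it was high, so its levels in the ridge are given as a description with no edgeR test. After thinning, 44.4% and 37.5% of Wt ridge cells had *Fgf4* UMIs against 0 of 19 and 0 of 12 cells in E1C8Δ/Δ. The two-sided exact permutation test cannot decide here, since its p of 0.333 is the smallest that 2 libraries against 2 can give.

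*Fgf9* in the ridge was at 27.5 and 59.1 CPM in the Wt libraries with at least 10 ridge cells and at 15.6 and 24.7 in those of E1C8Δ/Δ. The difference was -1.31 (SE 0.48) on the log2 scale with an adjusted p of 0.55 by edgeR. *Fgf17* was at 4.58 and 7.71 in Wt and at 11.7 and 12.3 in E1C8Δ/Δ, from 2 to 6 UMIs per library, too few for a test. *Fgf8*, *Fgf9*, *Fgfr1* and *Fgfr2* did not pass the test of E1C8Δ/Δ against Wt in the ridge, where 0.202% of genes did. *Fgf9* and *Fgfr1* were lower in both E1C8Δ/Δ ridge libraries than in both Wt ones, as were 15.9% of all genes tested.

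In the 6 libraries with at least 20 ectodermal cells, the ridge made up 18.2% and 16.7% of ectodermal cells in Wt replicates 1 and 2, 14.6% and 11.02% in E1C8Δ/Δ replicates 2 and 3, and 3.45% and 7.69% in E1C5Δ/Δ replicates 1 and 3. These mutant values lay below both Wt values, by 8.22 percentage points on average (p = 0.133 by the two-sided exact permutation test, which can give no p below 0.0667 here). The 3 libraries left out held 3 ridge cells of 9 in Wt replicate 3, 3 of 15 in E1C8Δ/Δ replicate 1 and 2 of 12 in E1C5Δ/Δ replicate 2, and neither of these mutant shares lay below both Wt values. In all ectoderm together, where ridge share and level per cell cannot be told apart, *Fgf8* was at 614, 662 and 622 CPM in Wt and at 179, 240 and 83.3 in E1C5Δ/Δ, with E1C8Δ/Δ at 1106, 286 and 317. No member passed the test of both mutants against Wt in all ectoderm, where 0.00935% of genes did. That test took every library with at least 10 ectodermal cells, which left out Wt replicate 3 alone.

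In other ectoderm the ligands were low. *Fgf8* ran from 0 to 142 CPM over the 9 libraries, *Fgf9* from 0 to 5.59 and *Fgf17* from 0 to 4.46. *Fgf8* UMIs were found in 48 of 539 of these cells. The gate leaves cells with fewer than 5 ridge markers here, and the 12 *Fgf4* UMIs in other ectoderm all came from 3 cells of Wt replicate 2. Cells with UMIs of *Wnt7a*, a dorsal marker, and none of *En1*, a ventral marker, had 31.4 CPM of *Fgf8* (128 cells), and cells with *En1* and no *Wnt7a* had 43.5 (221 cells). *Fgfr3* was at 9.99 in the dorsal and 3.05 in the ventral cells, from 50 and 20 UMIs. The 176 cells with neither marker had more *Fgf8*, 115.5 CPM, all 12 *Fgf4* UMIs and 8.11 CPM of *Fgfr3*. These sums pool the libraries and carry no test. No member passed the test of both mutants against Wt in other ectoderm, where 0.0096% of genes did. The median log2 difference of the 5 members tested was -0.47, beside -0.01 over all genes. In simulated data this fit found 48% of 2-fold changes, so a missing call does not show that a level was unchanged. *Fgf9* was lower in every mutant library than in Wt replicates 1 and 2, as were 1.78% of all genes, while Wt replicate 3, with 6 such cells, held 0 *Fgf9* UMIs.

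*Fgf10*, the mesenchymal ligand required for the limb bud and its ridge to form (chr13:118669791-118792115), was at 16.3 to 36.9 CPM in mesenchyme with a median of 21.7 over the libraries. Mesenchyme held 96.1% of its UMIs. It was 12.9-fold higher there than in all ectoderm (log2 difference -3.69 for ectoderm, SE 0.17, adjusted p = 1.3e-12 by edgeR) and 5.48-fold higher than in muscle. *Fgf10* was found in 39.5% of mesenchymal cells and in 4.94% of ridge cells, and the latter was close to the 3.21% of blood cells. Wt libraries were at 30.2, 19.4 and 18.0, E1C8Δ/Δ at 22.4, 17.0 and 16.3 and E1C5Δ/Δ at 21.7, 23.4 and 36.9. The genotypes overlapped, and the mean of the mutants differed from Wt by -0.00 (95% interval -0.35 to 0.34).

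*Fgf18* (chr11:33117430-33147400) was a mesenchymal and muscle ligand in these libraries. It was found in 8.22% of mesenchymal and 8.87% of muscle cells, against 0.642% of blood and 1.23% of ridge cells. Its level in mesenchyme was 5.24-fold that in ectoderm, and muscle did not differ from mesenchyme detectably (-0.07, 95% interval -0.29 to 0.14). *Fgf9*, by contrast, was in all 3 tissues. It was at 4.39-fold the mesenchymal level in muscle (2.14 on the log2 scale, SE 0.12, adjusted p = 2.8e-10 by edgeR) and at 3.26-fold in ectoderm, and 22.6% of its UMIs were in muscle cells, which held 6.37% of the UMIs of all genes. In muscle against mesenchyme, 6 of 7 members tested passed beside 59.0% of all genes, *Fgf9* and *Fgf8* higher in muscle, and *Fgf10*, *Fgfr2*, *Fgfr1* and *Fgfr3* lower.

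The receptors differed in the tissue where they were highest. *Fgfr1*, the main receptor of limb mesenchyme (chr8:25513654-25575718), was at 101 to 159 CPM in mesenchyme, 45.2 to 85.6 in muscle, 27.8 to 51.8 in other ectoderm and 2.69 to 18.2 in blood. The ranges of mesenchyme and muscle did not overlap. Endothelium was at 33.4 to 71.1 in the 8 libraries with more than 4 endothelial cells. *Fgfr2* (chr7:130162451-133123350) was highest in ectoderm, at 75.7 to 151 CPM in other ectoderm and 58.5 to 150 in the ridge, and its level in ectoderm was 4.72-fold that in mesenchyme (2.24 on the log2 scale, SE 0.11, adjusted p = 1.4e-12 by edgeR). The ranges of ridge and other ectoderm overlapped. UMIs from the 3′ end cannot tell the ectodermal and mesenchymal isoforms of *Fgfr2* apart. *Fgfr3* (chr5:33721674-33737068) was low, at 3.42 to 23.8 in other ectoderm and 1.03 to 3.07 in mesenchyme. In the ridge 3 UMIs of *Fgfr3* were counted in 81 cells, against 100 UMIs in 539 cells of other ectoderm.

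Members were also compared along 3 marker scores within the mesenchyme, where they were called about as often as genes in general (plot by position). Cells were scored by 4 proximal and 4 distal markers, by 4 anterior and 4 posterior markers and by 8 chondrogenic markers, and the highest and lowest of 3 equal parts were compared within libraries. The cuts fall inside a continuous range and were set within each library. A part is therefore not matched in marker level between genotypes. From 2191 to 5505 of the 36859 cells lay within 0.1 SD of a cut.

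**Figure D4:**
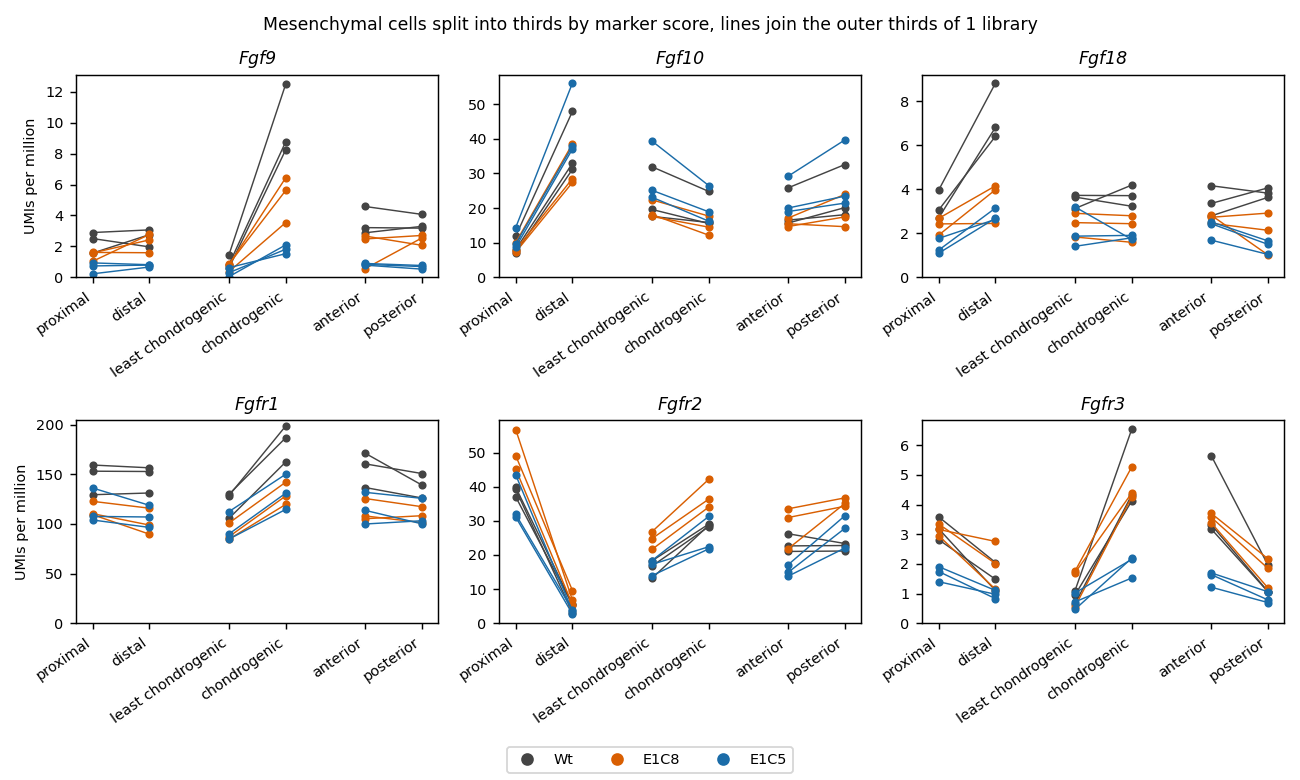
CPM of 6 members in mesenchymal cells of the outer parts of 3 marker scores, with lines joining the 2 parts of each library, coloured by genotype. *Fgf10* and *Fgf18* were higher distally and *Fgfr2* lower in the libraries of each genotype, except that *Fgf18* was nearly level in 1 E1C8Δ/Δ library, and *Fgf9* and *Fgfr3* were higher in the chondrogenic part of all 9.

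*Fgf10* and *Fgf18* were higher and *Fgfr2* and *Fgfr3* lower in distal than in proximal cells. *Fgf10* was at 27.4 to 56.1 CPM in the distal part and at 7.17 to 14.4 in the proximal part, without overlap, a 4.11-fold difference (2.04 on the log2 scale, SE 0.03, adjusted p = 1.4e-15 by edgeR). *Fgf18* was 2.07-fold higher distally. *Fgfr2* was at 2.68 to 9.55 distally and 31.1 to 56.7 proximally, an 8.18-fold difference in the other direction (SE 0.11 on the log2 scale, adjusted p = 1.1e-11). *Fgfr3* was 1.70-fold lower distally. *Fgf9* (0.31, adjusted p = 0.081) and *Fgf8* did not pass, nor did *Fgfr1*, with a log2 difference of -0.04 (95% interval -0.09 to 0.02). These 4 calls of 7 members tested stood beside 66.9% of all genes called.

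Along the chondrogenic score, *Fgf9* was higher in the upper part by 2.87 on the log2 scale (SE 0.20, adjusted p = 2.9e-09 by edgeR), a 7.29-fold difference. It was at 1.53 to 12.5 CPM there and at 0.0464 to 1.45 in the lower part. *Fgfr3*, which restrains the growth of cartilage, was 3.20-fold higher, *Fgfr2* 1.51-fold and *Fgfr1* 1.34-fold higher, and *Fgf10* was 1.43-fold lower. *Fgf18* did not pass. Of 7 members tested, 5 were called beside 68.5% of all genes. The 8 genes of the score define it and are not given as results.

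Differences along the anteroposterior score were smaller. *Fgfr3* was 2.11-fold lower in posterior cells (-1.08 on the log2 scale, SE 0.11, adjusted p = 7.5e-07 by edgeR), *Fgfr2* 1.36-fold and *Fgf10* 1.25-fold higher. *Fgf9*, *Fgf18*, *Fgfr1* and *Fgf8* did not pass. The 3 calls of 7 members stood beside 50.4% of all genes. The anterior markers were *Alx4*, *Boc*, *Pax1* and *Sox6*, and the paper lists *Sox6* among genes enriched in a chondrogenic cluster. The part of chondrogenic cells in the *Fgfr3* difference was not tested.

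Between genotypes, 3 members were lower in the mesenchyme of both mutants together than in Wt, namely *Fgf9*, *Fgf18* and *Fgfr1* (plot by genotype). They were 3 of 8 members tested, beside 2.03% of all genes and 1.44% of genes called lower. *Grem1*, the deletion target, was lower by -1.19 (SE 0.14, adjusted p = 0.0032) in the same fit. For *Fgf9*, *Fgf18* and *Fgfr1*, every mutant library lay below every Wt library, as for 3.45% of all genes. All of these calls were lost when embryo sex entered the model, and all Wt embryos were male. With sex as a covariate *Grem1* differed by -1.16 (adjusted p = 0.084 by edgeR), and the differences of the members are given with each gene. Between the mutants, 4 members were lower in E1C5Δ/Δ than in E1C8Δ/Δ in mesenchyme, beside 9.69% of all genes, and 2 in muscle, beside 3.52%.

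**Figure D5:**
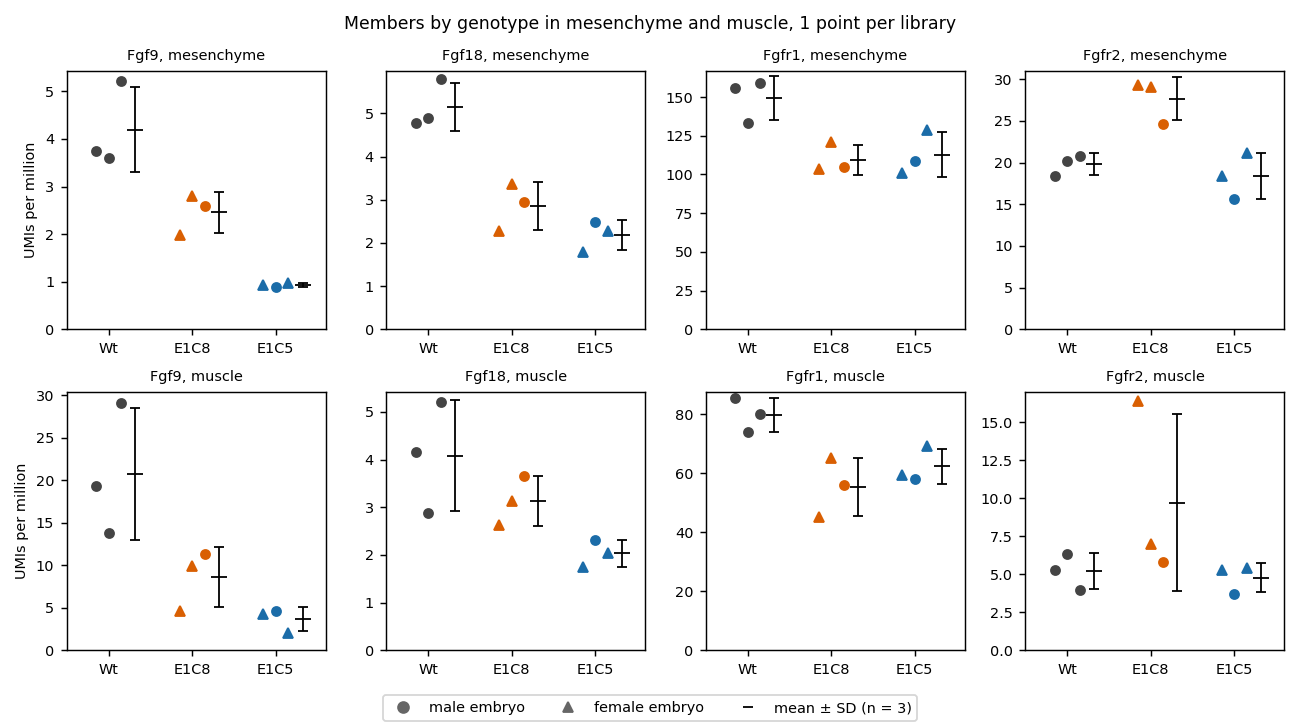
CPM of 4 members in mesenchyme and muscle, 1 point per library (circles male, triangles female embryos) with the mean and SD of 3 libraries per genotype. *Fgf9* in mesenchyme fell from 3.61 to 5.22 in Wt to 0.894 to 0.962 in E1C5Δ/Δ, with E1C8Δ/Δ between, and *Fgfr2* in mesenchyme was higher in E1C8Δ/Δ than in the other genotypes.

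*Fgf9* in mesenchyme was at 3.75, 3.61 and 5.22 CPM in Wt (4.19 ± 0.893, SD, n = 3), 1.98, 2.80 and 2.58 in E1C8Δ/Δ and 0.928, 0.894 and 0.962 in E1C5Δ/Δ. The 3 genotypes did not overlap, and how many of all genes separate in this way was not counted. Both mutants together were 2.68-fold lower than Wt (-1.42 on the log2 scale, SE 0.15, adjusted p = 0.0021 by edgeR). E1C5Δ/Δ was 4.30-fold lower (adjusted p = 0.00053) and E1C8Δ/Δ 1.67-fold lower (adjusted p = 0.030), the latter losing its call with sex as a covariate (-0.70, 0.16) and without any of 5 libraries in turn, Wt replicates 2 and 3 and each E1C8Δ/Δ replicate. With sex as a covariate the difference of both mutants was -1.38 with an adjusted p of 0.075, and among the 5 male libraries alone, with 1 library of each mutant, -1.38 with 0.10. For E1C5Δ/Δ the call held with sex as a covariate (-2.05, adjusted p = 0.017), and the difference of its 1 male library from Wt was -2.12.

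The 8 chondrogenic markers, whose part in this result was not tested, were lowest in E1C5Δ/Δ and overlapped between Wt and E1C8Δ/Δ. Their sum in mesenchyme was 414 to 467 CPM in Wt, 342 to 444 in E1C8Δ/Δ and 232 to 338 in E1C5Δ/Δ, with all 8 detected in each genotype. Within the chondrogenic part of the mesenchyme, *Fgf9* was at 8.77, 8.25 and 12.5 in Wt, 3.54, 5.62 and 6.44 in E1C8Δ/Δ and 1.82, 2.10 and 1.53 in E1C5Δ/Δ. The genotypes again did not overlap, and the share of all genes that separate in this way was not counted here either. This part was cut within each library, so its marker level was not matched between genotypes. The share of mesenchymal cells with *Fgf9* UMIs, thinned to 10000 UMIs, was 3.399% to 5.29% in Wt, 1.99% to 2.59% in E1C8Δ/Δ and 0.806% to 1.21% in E1C5Δ/Δ.

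*Fgf9* was also lower in muscle, at 19.3, 13.8 and 29.0 CPM in Wt, 4.59, 9.91 and 11.3 in E1C8Δ/Δ and 4.32, 4.62 and 2.09 in E1C5Δ/Δ. Every mutant library was below every Wt library, as for 2.56% of all genes. Both mutants together were 3.38-fold lower than Wt (-1.76, SE 0.27, adjusted p = 0.0060 by edgeR), beside 1.44% of genes called. E1C5Δ/Δ was 5.63-fold lower (adjusted p = 0.0031, beside 1.29% of genes), a call lost with sex as a covariate (0.12), and for E1C8Δ/Δ the difference was -1.02 with an adjusted p of 0.091. With sex as a covariate the difference of both mutants was -1.42 (adjusted p = 0.21), and among male libraries -1.40 (0.11). The 7 muscle markers were at 722 to 936 in Wt, 806 to 843 in E1C8Δ/Δ and 729 to 933 in E1C5Δ/Δ. The 8 chondrogenic markers in muscle cells were at 100.5 to 146 in Wt, 76.5 to 150.01 in E1C8Δ/Δ, with 1 of them at 0, and 76.8 to 89.2 in E1C5Δ/Δ, with 2 at 0. The 4 distal markers were at 35.4 to 43.1, 24.4 to 31.7 and 19.2 to 30.8 in the same order. The part of these transcripts in the result was not tested. *Fgf9* in blood reached 0.610 CPM in Wt replicate 2, or 1.12 with haemoglobin left out of the total, from 3 UMIs, and endothelium reached 0.452.

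*Fgf18* in mesenchyme was at 4.78, 4.89 and 5.79 CPM in Wt (5.15 ± 0.556, SD, n = 3), 2.27, 3.36 and 2.94 in E1C8Δ/Δ and 1.79, 2.48 and 2.28 in E1C5Δ/Δ. Both mutants together were 2.01-fold lower (-1.01 on the log2 scale, SE 0.15, adjusted p = 0.0098 by edgeR), E1C8Δ/Δ 1.77-fold (0.018) and E1C5Δ/Δ 2.27-fold (0.010). The call of E1C8Δ/Δ was lost with sex as a covariate (-0.69, 0.14) and without its replicate 1 or 3, and that of E1C5Δ/Δ with sex (-1.04, 0.13) and without its replicate 1. With sex as a covariate the difference of both mutants was -0.86 (adjusted p = 0.18), and among male libraries -0.86 (0.24). The 4 distal markers were at 215 to 305 in Wt, 164 to 190 in E1C8Δ/Δ and 163 to 231 in E1C5Δ/Δ. In the distal part of the mesenchyme, cut within each library, *Fgf18* was at 6.41 to 8.82 in Wt and 2.45 to 4.16 in the mutants. In muscle it was at 2.89 to 5.21 in Wt, 2.62 to 3.66 in E1C8Δ/Δ and 1.75 to 2.31 in E1C5Δ/Δ, and no comparison there passed.

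*Fgfr1* in mesenchyme was at 156, 133 and 159 CPM in Wt, 103, 121 and 105 in E1C8Δ/Δ and 101, 109 and 129 in E1C5Δ/Δ. Both mutants together were 1.33-fold lower (-0.41, SE 0.08, adjusted p = 0.030 by edgeR), and E1C8Δ/Δ alone 1.39-fold lower (adjusted p = 0.016), a call lost with sex as a covariate (-0.48, 0.094) and without its replicate 1 or 3. The call for both mutants did not hold without Wt replicate 1, 2 or 3, E1C8Δ/Δ replicate 1 or 3, or E1C5Δ/Δ replicate 1 or 2, each left out in turn, where the difference stayed between -0.46 and -0.38. With sex as a covariate the difference of both mutants was -0.42 (adjusted p = 0.27). In muscle *Fgfr1* was at 74.1 to 85.6 in Wt and 45.2 to 69.3 in the mutants, without overlap, as for 2.56% of all genes. E1C8Δ/Δ passed against Wt there (-0.50, adjusted p = 0.048 by edgeR, beside 3.24% of genes). This call was lost with sex as a covariate (-0.51, 0.18), with called doublets kept (-0.48, 0.070) and without any library but E1C5Δ/Δ replicate 3.

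*Fgfr2* in mesenchyme was at 18.4, 20.2 and 20.8 CPM in Wt, 29.3, 29.1 and 24.7 in E1C8Δ/Δ and 18.4, 15.6 and 21.2 in E1C5Δ/Δ. E1C8Δ/Δ was 1.37-fold above Wt (0.45, SE 0.10, adjusted p = 0.024 by edgeR, beside 9.36% of genes called), and E1C5Δ/Δ did not pass against Wt. This call did not hold with sex as a covariate (0.31, adjusted p = 0.18) or without Wt replicate 1 or any E1C8Δ/Δ replicate in turn. The 11 ectodermal markers in mesenchyme were at 7.27 to 8.55 in Wt, 8.67 to 12.8 in E1C8Δ/Δ and 4.79 to 7.60 in E1C5Δ/Δ, and the 8 ridge markers at 40.3 to 53.3, 70.7 to 85.8 and 43.3 to 48.4. Their part in the result was not tested. *Fgfr2* in the proximal part, where it was highest, was at 37.0 to 39.8 in Wt and 45.2 to 56.7 in E1C8Δ/Δ.

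*Fgfr3* in mesenchyme was at 2.06, 2.16 and 3.07 CPM in Wt, 2.15, 3.05 and 2.55 in E1C8Δ/Δ and 1.03, 1.21 and 1.35 in E1C5Δ/Δ. E1C5Δ/Δ was 1.93-fold below Wt (-0.95, SE 0.19, adjusted p = 0.037 by edgeR, beside 1.41% of genes called). The call was lost without Wt replicate 2 or 3, E1C8Δ/Δ replicate 2 or 3, or any E1C5Δ/Δ replicate, and the difference lay between -1.06 and -0.79 over the 9 leave-outs. With sex as a covariate it was -0.92 (0.27). The 8 chondrogenic markers in mesenchyme were at 414 to 467 in Wt, 342 to 444 in E1C8Δ/Δ and 232 to 338 in E1C5Δ/Δ. Their part in the *Fgfr3* result was not tested. In the chondrogenic part, cut within each library, *Fgfr3* was highest. Wt was there at 4.12 to 6.54, E1C8Δ/Δ at 4.25 to 5.27 and E1C5Δ/Δ at 1.52 to 2.19.

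*Fgf8* in mesenchyme was at 0.589, 1.48 and 0.940 CPM in Wt, 2.04, 1.97 and 2.77 in E1C8Δ/Δ and 0.336, 0.361 and 0.349 in E1C5Δ/Δ. E1C8Δ/Δ passed against Wt (1.14, SE 0.31, adjusted p = 0.043 by edgeR), a call lost with sex as a covariate (1.36, 0.093), with called doublets kept (1.07, 0.0502) and without any library but Wt replicate 2 and E1C5Δ/Δ replicate 3. E1C5Δ/Δ missed the threshold (-1.51, adjusted p = 0.0504). Blood cells, with haemoglobin left out of the total, held up to 3.74 *Fgf8* CPM in Wt, up to 1.24 in E1C8Δ/Δ and up to 0.735 in E1C5Δ/Δ in libraries with at least 20 blood cells. The 8 ridge markers in mesenchyme were at 40.3 to 53.3 in Wt, 70.7 to 85.8 in E1C8Δ/Δ and 43.3 to 48.4 in E1C5Δ/Δ, and their part in the result was not tested. *Msx2* is among these markers and is also reported by the paper in limb mesenchyme, so their sum does not measure ridge RNA alone. In muscle *Fgf8* was at 3.403, 5.04 and 5.71 in Wt, 3.28, 3.23 and 5.41 in E1C8Δ/Δ and 1.15, 1.62 and 0.903 in E1C5Δ/Δ, which was 4.03-fold below Wt (-2.01, SE 0.35, adjusted p = 0.013). The ridge markers in muscle were at 4.81 to 7.94, 10.1 to 17.0 and 3.93 to 7.56 in the same order. This call was lost with sex as a covariate (-1.39, adjusted p = 0.26) and without E1C5Δ/Δ replicate 3 (-1.76, 0.081).

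The other genes of the pathway were followed as 3 lists. Of 15 genes that relay or restrain the FGF signal inside the cell, 9 were higher in distal than in proximal mesenchyme and 2 lower, beside 66.9% of all genes called, with a median log2 difference of 0.60 beside 0.02 over all genes. The share of the list called was thus near that of all genes. *Spry4*, a feedback inhibitor, was 10.9-fold higher distally, *Etv5*, a transcription factor induced by FGFs, 4.25-fold and *Il17rd*, a membrane inhibitor, 2.99-fold. Along the chondrogenic score 4 were higher and 9 lower, beside 68.5% of all genes called, with a median of -0.09 beside 0.00 over all genes, *Spry4* 3.99-fold and *Etv4* 3.64-fold lower. In the ridge against other ectoderm, where 8.39% of genes were called, *Spry1* (1.55-fold) and *Spry2* (1.62-fold), both feedback inhibitors, were higher.

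None of the 15 relay genes passed in the mesenchyme or muscle of both mutants against Wt, beside 2.03% and 1.44% of all genes. At such shares a list of this length can hold no call without being unlike other genes. In E1C8Δ/Δ mesenchyme 3 were lower than in Wt, *Ptpn11* (-0.42, adjusted p = 0.0092 by edgeR), *Etv5* (-0.73, 0.034) and *Gab1* (-0.42, 0.046), beside 9.36% of all genes called, with a median over the list of -0.17. In this contrast 1523 genes were called, and 134 with sex as a covariate. In E1C8Δ/Δ muscle *Ptpn11*, a phosphatase that carries the signal from receptor complexes, was lower by -0.43 (adjusted p = 0.041 by edgeR), beside 3.24% of genes called. Most calls of that contrast were lost with sex as a covariate. *Ptpn11* was 1.34-fold lower in each tissue, and *Etv5* 1.66-fold lower in mesenchyme.

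Of 24 further FGF genes, 13 had enough UMIs in ectoderm against mesenchyme, and 5 were higher and 4 lower in ectoderm, beside 54.0% of all genes called. *Fgfbp1*, which releases stored FGFs from the matrix, was 290.1-fold and *Fgf1* 22.2-fold higher in ectoderm, and *Fgfrl1*, a receptor without a kinase, 2.71-fold lower. *Fgf5* was 16.3-fold higher in muscle than in mesenchyme. In muscle of E1C5Δ/Δ it was 3.42-fold lower than in Wt (-1.77, SE 0.38, adjusted p = 0.032 by edgeR), beside 1.29% of genes called. Most calls of this contrast were lost with sex as a covariate. *Fgf12* was 11.4-fold lower distally and 5.68-fold higher in the chondrogenic part. In mesenchyme 15 of the 24 were tested. None of these 15 passed in both mutants against Wt, beside 2.03% of all genes, and *Flrt3* was the only one in E1C8Δ/Δ (0.37, adjusted p = 0.048 by edgeR), beside 9.36%.

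Of 12 genes for heparan sulphate, the matrix sugar that FGFs need to bind their receptors, 10 were tested, and 6 were higher and 2 lower in ectoderm than in mesenchyme, beside the same 54.0% of all genes. *Sulf1*, which removes sulphate groups from these chains, was 6.497-fold higher in ectoderm, 6.43-fold higher in muscle than in mesenchyme, 3.44-fold lower distally and 2.49-fold higher in the ridge than in other ectoderm (adjusted p = 0.00036 by edgeR). *Sdc4*, a carrier of the chains, was 8.51-fold higher in ectoderm. In muscle it was 1.68-fold higher in E1C8Δ/Δ than in Wt (adjusted p = 0.025 by edgeR), beside 3.24% of genes called. Most calls of this contrast in muscle were lost with sex as a covariate.

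Over 44 sums of a class in a library, the genes whose log2 levels lay closest to each member were found by Pearson's correlation, as a description, since sums of 1 class share their cell type and sums of 1 library their depth. *Fgf8* was closest to *Tulp2* (0.949), *Kirrel3* and *Isl2*, and *Fgf4* to *Smpd3* (0.777), *Igfbpl1* and *Srms*. *Fgf17* was closest to *Dok5* (0.969), *Cpz* and *Cd164l2*, and *Fgf9* to *Irs1* (0.912), *Scara3* and *Sulf1* of the heparan list. *Fgf10* was closest to *Hoxd9* (0.955), *Vcam1* and *Lmo1*, and *Fgf18* to *Dnm3os* (0.923), *Nkd2* and *Sgcd*. Of the receptors, *Fgfr1* was closest to *Il17rd* (0.966), *Gjc1* and *Limd2*, *Fgfr2* to *Tfap2a* (0.976), *Cib2* and *Cdh3*, and *Fgfr3* to *Smoc2* (0.898), *Synpo2* and *Metrnl*. *Il17rd* is itself on the relay list.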

How the data were processed

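The deposited files were UMI counts per gene and barcode of each library, which the authors made with CellRanger v6.0.1 on mm10 without normalisation or filters on cells (per the labels, with Seurat 4.3.0.1 for later steps). The members and gene lists were chosen with earlier results of these data known. A kept cell had over 2500 genes, a total below 200000 UMIs and a mitochondrial part below 10%. Called doublets (0.8% per 1000 barcodes) were removed. Barcodes shared by 2 libraries numbered at most 172. Classes were gated by markers: ectoderm by 5 of 11, ridge by 5 of 8, muscle by 3 of 7 and blood by 10% globin and erythroid UMIs. Counts were summed per library and class (at least 20 cells, 10 for ridge and for other ectoderm) and tested with edgeR 4.0.16 (quasi-likelihood, filterByExpr, Benjamini-Hochberg over all genes, called at adjusted p below 0.05), without 1809 features on X or Y and 4 transgenes. Genotypes were fitted as group means over all libraries, and classes with the library as a block. In all ectoderm together the genotype test took libraries with at least 10 cells. DESeq2 1.42.0, other filters and left-out libraries were alternatives. Intervals of log2 differences are the estimate with 1.96 SE. The genotype fits were tested on simulated data. They found 71% of 2-fold changes in mesenchyme and in muscle, 48% in other ectoderm and 28% in ridge. Named were the 9 members, *Grem1*, list genes past the test (3 per list for relay and heparan genes) and the 3 genes closest to each member. The promoter table held 6 of the 9 members. Replicate numbers did not pair libraries: same-numbered libraries had correlated deviations of -0.143 to 0.0940.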

Additional observations from a re-analysis of the deposited data

Results flagged for a closer look

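The mutants differed from each other, by the contrast of E1C5Δ/Δ against E1C8Δ/Δ in the same edgeR fits, in 4 members in mesenchyme: *Fgf8* (-2.65 on the log2 scale, adjusted p = 0.0028), *Fgf9* (-1.36, 0.0032), *Fgfr3* (-1.06, 0.010) and *Fgfr2* (-0.51, 0.015), beside 9.69% of all genes. *Grem1* was higher in E1C5Δ/Δ (0.72, 0.026). In muscle, where 3.52% of genes were called, *Fgf8* (-1.89, 0.019) and *Fgf9* (-1.47, 0.040) were lower in E1C5Δ/Δ. The contrast was added after these data had been seen, and none of the 7 calls held among the male libraries alone, where each mutant keeps 1 library. In mesenchyme no other alternative ended the calls of *Fgf8* and *Fgf9*. *Fgf8* was low there, at 0.336 to 2.77 CPM over the libraries, and its share of cells came near free RNA. Blood cells, with haemoglobin left out, held 1.24 and 1.18 *Fgf8* CPM in E1C8Δ/Δ replicates 2 and 3. They held 0, 0.735 and 0.399 in E1C5Δ/Δ replicates 1 to 3. The part of free RNA in the *Fgf8* difference was not tested. *Fgfr2* also lost its call without E1C8Δ/Δ replicate 1 (-0.49, 0.056) or 2 (-0.48, 0.069) or E1C5Δ/Δ replicate 2 (-0.42, 0.051), and *Fgfr3* without E1C8Δ/Δ replicate 2 (-0.94, 0.059). *Grem1* lost its call without E1C8Δ/Δ replicate 1 (0.66, 0.092) or 2 (0.62, 0.12) or E1C5Δ/Δ replicate 3 (0.57, 0.080). In muscle *Fgf8* lost its call with a replicate block (-1.77, 0.053) and without E1C8Δ/Δ replicate 3 (-1.46, 0.098) or E1C5Δ/Δ replicate 3 (-1.66, 0.074), and *Fgf9* with sex as a covariate (-1.34, 0.063), DESeq2 (-1.28, 0.13), a replicate block (-1.45, 0.088) and without any 1 mutant library.

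Of the UMIs of *Fgf4*, 14.1% (18 of 128), and of those of *Fgf8*, 13.5% (1348 of 9995), were in the 1772 cells that passed no class gate, which held 3.605% of the UMIs of all genes. These cells entered no comparison.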

How the results depend on the processing

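Of 105 differences tested for the members, 47 were called, and 26 of these, all between classes or positions, kept their call in every alternative run. Each of the other 21, all between genotypes, was lost in at least 1 alternative, 3 of them in the male libraries alone, where each mutant has 1 library. Of the 1623 alternative values of all 105 differences, 0 had the opposite sign together with a call in the main or the alternative run. Sign changes without such a call were not counted. Genes called in mesenchyme, both mutants against Wt, numbered 330, and 986 with DESeq2, 519 without the low-count filter, 7 with sex as covariate and 19 in male libraries. For E1C8Δ/Δ against Wt (1523) they were 134 with sex and 29 in males, for E1C5Δ/Δ (230) 581 with DESeq2, 367 unfiltered, 13 with sex and 19 in males, and for the mutants against each other (1578) 8 in males. In muscle the count of 175 became 584 unfiltered, 1 with sex and 16 in males, that of E1C8Δ/Δ (394) 945, 26 and 31, that of E1C5Δ/Δ (157) 526, 2 and 6, and between mutants (428) 1118 unfiltered and 9 in males. In the ridge 12 became 5 with DESeq2, 63 unfiltered, 55 in cells over 3500 genes, 37 with sex and 67 with 1 more marker. In other ectoderm 1 (438 at an unadjusted p below 0.05) became 58 unfiltered, 0 with sex and 4 with 1 more marker. Ridge against other ectoderm gave 706, and 413 with DESeq2. The cause was not tested.

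With a replicate block the counts were 86 (mesenchyme, both mutants), 705 (E1C8Δ/Δ), 143 (E1C5Δ/Δ) and 749 (between mutants), 5 in other ectoderm, and 70, 133, 106 and 127 in muscle. Same-numbered libraries correlated at -0.143 to 0.0940 and others at -0.147 to 0.260, so the numbers are not a pairing. In the block *Fgf9* and *Fgf18* kept their calls in mesenchyme for both mutants against Wt (0.0093 and 0.015). The block ended 7 member calls, those of *Fgfr1* in mesenchyme for both mutants (0.076), of *Fgf8* (0.066), *Fgf9* (0.054) and *Fgfr2* (0.061) in mesenchyme and *Fgfr1* in muscle (0.091) for E1C8Δ/Δ against Wt, and of *Fgf8* and *Fgf9* in muscle between mutants. No block could be fitted in the ridge.

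Leaving out 1 library at a time gave 111 to 769 genes in mesenchyme, 371 to 2028 for E1C8Δ/Δ, 58 to 292 for E1C5Δ/Δ and 341 to 2215 between mutants. Muscle gave 50 to 128, 61 to 477, 46 to 166 and 45 to 607, other ectoderm 0 to 6, ridge 15 to 78 and ridge against other ectoderm 389 to 679. Without any 1 library *Fgf9* stayed at -1.50 to -1.26 in mesenchyme and -1.99 to -1.49 in muscle and *Fgf18* at -1.07 to -0.93, all called. Depth limits *Fgf4* and *Fgf17* most, with 128 and 288 UMIs in all.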
